A study of Mus musculus with 12 samples.

Results

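Adenine-induced chronic kidney disease (CKD) was compared with the healthy kidney in 8 of the 12 mice of the series, 4 CKD mice and 4 control mice, over the 13148 of 22053 listed protein-coding genes that reached at least 1 FPKM in at least 4 of the 12 mice. FPKM count the fragments of a gene relative to its transcript length and to all mapped reads of a mouse. All mice were wild-type C57BL/6. CKD mice ate a diet with 0.2% adenine for 8 weeks, from 8 to 16 weeks of age, control mice ate the matching diet without adenine, and both received PBS i.p. once a week. RNA came from whole kidney tissue, with 1 library per mouse. The other 4 mice, CKD mice that also received iron dextran, entered the fit to help estimate the spread between mice. They also counted in the filter and in the rescalings described below. Whole tissue holds every kidney cell type, so fewer cells of a type and less RNA per cell cannot be told apart in these values. Values of single mice are given throughout in the order 012811, 012822, 042301 and 042310 for control and 021320, 022301, 110310 and 120102 for CKD, the numbers being the labels of the mice.

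Adenine fed in excess is oxidised to 2,8-dihydroxyadenine, which crystallises in the tubule lumen, injures the epithelium and leads to tubulointerstitial inflammation and fibrosis. The proximal tubule is the bulk of the renal cortex. It reabsorbs phosphate, glucose, amino acids and filtered protein, secretes organic anions and cations, and runs on fatty acid oxidation and mitochondrial respiration, while glucose is made there rather than burned. Injured proximal tubule cells are known to lose these functions, to express injury genes such as Havcr1 and Lcn2, and to release chemokines that draw myeloid cells, and fibroblasts and pericytes then lay down collagen. The genes were read in 4 programs, tubule, stroma, immune and metabolism, made of lists of known markers and pathway members. The members were chosen with earlier results of these data known, so the counts and medians of the lists are descriptions and not tests.

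The groups separated widely, and the scale of the values itself moved. The first principal component of the 8 mice held 79.4% of the variance and separated the groups, and the second held 11.0% and set control mouse 042301 and CKD mouse 110310 at one end. In these 2 mice 596 and 806 genes lay 2-fold or more from the other mice of the group, against 42 to 179 in the other 6. Both mice lay above their group in short transcripts and below it in long ones. At a Benjamini-Hochberg adjusted p under 0.05 (limma), 7181 genes were higher in CKD mice (54.6% of those tested) and 1748 were lower (13.3%), and the median log2 difference over all genes was 0.50, so that every value below is read against that shift. Median-of-ratios rescaling brought this median to 0.012 and gave 3781 higher (28.8%) and 3856 lower genes (29.3%), and quantile normalization gave a median of -0.03 with 3060 higher (23.3%) and 3363 lower (25.6%). Equal totals without the 50 most abundant genes left the shift in place, with a median of 0.55, 7473 higher (56.8%) and 1614 lower genes (12.3%). On the deposited scale and under the first 2 of these rescalings, called all 3 scalings here, 2402 genes were higher (18.3%) and 1617 lower (12.3%). A gene is said to have risen or fallen when it passed the test on the FPKM as deposited, and counts under all 3 scalings are given beside each list. The filter kept 268 of 279 listed tubule genes, 203 of 215 stromal, 248 of 333 immune and 422 of 445 metabolic genes. Of these, 10, 31, 75 and 8 had a control mean below 1 FPKM and could pass the filter through CKD mice, iron-treated ones included. The counts of rises among tested stromal and immune genes are therefore not counts over all that were listed.

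A few very abundant proximal tubule transcripts took a smaller share of the total in CKD mice. Kap, an androgen-regulated protein of the proximal tubule, was listed at 68943, 68833, 89890.1 and 64404 FPKM in the control mice and 4637, 1026, 7554 and 1124 FPKM in the CKD mice. It took 10.6 to 12.7% of the summed FPKM of the control mice and 0.188 to 1.25% in CKD mice. The 50 most abundant genes took 32.5 to 33.5% in control and 19.8 to 22.8% in CKD mice, and 11470 to 11800 genes reached 1 FPKM in control mice against 12750 to 13061 in CKD mice. Summed over the genes whose share was lower in CKD mice, the share fell by 33.4 percentage points, and over the 10 largest falls it fell by 15.8. The largest single gain was that of Spp1, osteopontin, a crystal-binding phosphoprotein of the tubule, from 0.0796% to 2.80% of the total.

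**Figure D1:**
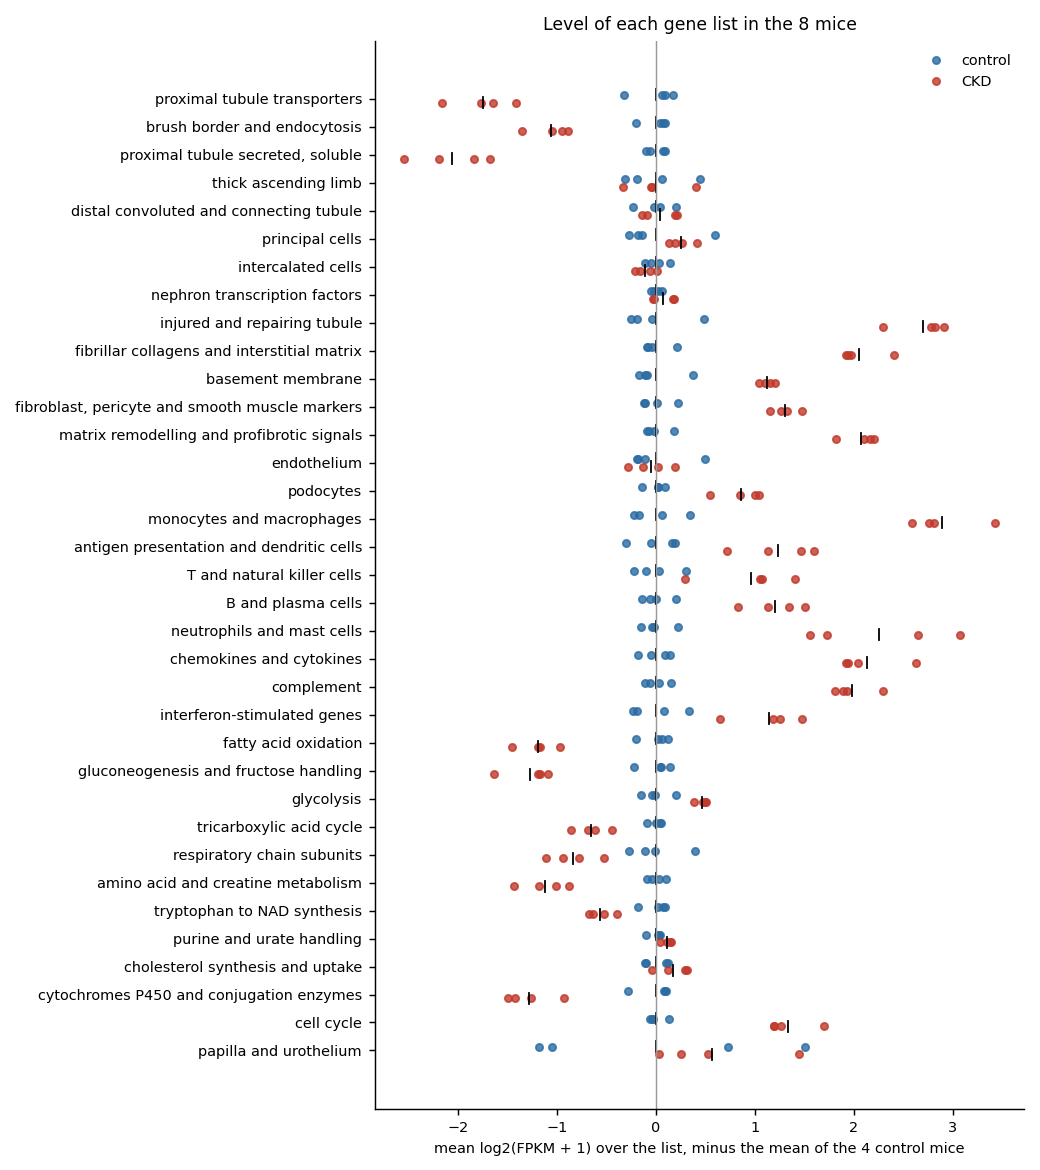
Level of the gene lists in each mouse, as the mean of log2(FPKM + 1) over the tested members minus the mean of the 4 control mice (blue, control; red, CKD; black ticks, group means). The CKD mice lie apart from the control mice in the proximal tubule, injury, matrix, macrophage and mitochondrial lists and among them in the thick ascending limb, endothelial and cholesterol lists.

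Most transporters of the proximal tubule fell. Of 49 transporters tested, 40 fell and 3 rose (37 and 1 under all 3 scalings), with a median log2 difference of -1.34 against 0.50 for all genes. Brush border and endocytosis genes gave 20 falls and 1 rise among 27 (19 and 0), median -1.03, and soluble and secreted proteins of this segment 18 falls and 1 rise among 22 (17 and 0), median -1.80. Slc34a1, the main sodium-phosphate cotransporter of the brush border, was 1417, 1918, 1037 and 1797 FPKM in the control mice and 323, 145, 362 and 254 FPKM in the CKD mice (log2 difference -2.54 ± 0.30 SE, adjusted p = 9.25e-06). Each CKD mouse was below each control mouse, and 022301 was the lowest. Slc5a2, the glucose transporter SGLT2, was 185, 264, 179.7 and 228 FPKM in the control mice and 69.5, 52.1, 77.4 and 60.6 FPKM in the CKD mice (log2 difference -1.70 ± 0.35 SE, adjusted p = 0.000799). The groups did not overlap.

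Carriers of organic anions were among the steepest falls. Slco1a1, an organic anion transporting polypeptide, was 94.4, 108, 73.2 and 177 FPKM in the control mice and 0.196, 0.239, 0.496 and 0.127 FPKM in the CKD mice (log2 difference -6.43 ± 0.22 SE, adjusted p = 8.19e-10), which left it near 0 in every CKD mouse. Slc22a7, the transporter OAT2, was 254, 188, 317 and 186 FPKM in the control mice and 3.31, 0.988, 14.8 and 0.661 FPKM in the CKD mice (log2 difference -5.90 ± 0.72 SE, adjusted p = 1.29e-05). Here the CKD mice differed among themselves, with 110310 above the other 3. The urate exchanger URAT1, encoded by Slc22a12, fell by 3.55 on the log2 scale, and OAT1 and OAT3, encoded by Slc22a6 and Slc22a8, fell by 2.99 and 2.21. The organic cation carrier Slc22a2 fell by 2.67. Abcc4, an efflux pump for organic anions, rose instead, was 4.42, 5.43, 6.51 and 5.64 FPKM in the control mice and 17.5, 17.4, 12.6 and 22.5 FPKM in the CKD mice (log2 difference 1.49 ± 0.18 SE, adjusted p = 1.18e-05), and was the only transporter of the list to rise under all 3 scalings. Slc9a3, the apical sodium-proton exchanger, and Slc4a4, the basolateral bicarbonate exit, had log2 differences of 0.14 and -0.0029 and did not pass the test.

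Both endocytic receptors of the brush border fell. Lrp2, which encodes the endocytic receptor megalin, was 90.2, 93.01, 56.8 and 129 FPKM in the control mice and 42.4, 19.4, 21.1 and 33.7 FPKM in the CKD mice (log2 difference -1.64 ± 0.32 SE, adjusted p = 0.000545). Its partner Cubn, cubilin, was 34.5, 34.97, 20.9 and 38.3 FPKM in the control mice and 17.6, 10.5, 9.98 and 16.4 FPKM in the CKD mice (log2 difference -1.19 ± 0.29 SE, adjusted p = 0.00242). In both genes the lowest control mouse, 042301, stayed above every CKD mouse. Mep1b, a meprin protease of the brush border, was 141, 108, 143 and 120.0 FPKM in the control mice and 20.9, 6.83, 16.2 and 7.23 FPKM in the CKD mice (log2 difference -3.36 ± 0.32 SE, adjusted p = 1.57e-06), and Ggt1, the brush border enzyme of glutathione breakdown, had a log2 difference of -2.33. Among the soluble proteins Dnase1 was 848, 896, 538 and 824 FPKM in the control mice and 22.2, 11.6, 29.2 and 10.98 FPKM in the CKD mice (log2 difference -5.40 ± 0.36 SE, adjusted p = 9.43e-08), and Miox, which starts inositol breakdown, was 1909.8, 2514, 2462 and 1890.5 FPKM in the control mice and 323, 157, 319.9 and 209 FPKM in the CKD mice (log2 difference -3.17 ± 0.35 SE, adjusted p = 6.43e-06). Ctsl, a lysosomal protease, was the only member of its list to rise, by 0.72 (log2), but its difference after median-of-ratios rescaling was 0.14 and did not pass. Dpp4 was the only brush border gene to rise, and did so on the deposited scale alone.

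Of the factors that maintain this segment, Hnf4a fell. Hnf4a, a nuclear receptor that drives proximal tubule genes, was 197, 214 and 181 FPKM in 3 control mice and 76.0, 47.4 and 87.2 FPKM in 3 CKD mice, with 1 failed estimate in each group treated as missing (log2 difference -1.52 ± 0.21 SE, adjusted p = 9.53e-05). The 3 against 3 values did not overlap, where the smallest exact two-sided p is 0.10. Of 29 nephron transcription factors tested, 6 fell (20.7%) and 9 rose (31.0%) on the deposited scale, against 13.3% and 54.6% of all genes. Under either rescaling 11 fell, with 3 and 4 rises. Under all 3 scalings, where 12.3% of all genes fell and 18.3% rose, 6 fell and 1 rose. The one that rose was Grhl2, an epithelial barrier factor, which was 1.5, 1.94, 3.49 and 1.45 FPKM in the control mice and 7.69, 7.66, 5.62 and 7.61 FPKM in the CKD mice (log2 difference 1.43 ± 0.19 SE, adjusted p = 2.26e-05). Ppara and Ppargc1a, regulators of fatty acid oxidation and of mitochondrial content, had log2 differences of 0.05 and 0.48 and did not pass.

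RefSeq promoters on GRCm38.p6, 250 bases before to 50 after each start, were matched by symbol for 10108 of the tested genes and searched on both strands for short binding motifs, as a description only. The HNF4 motif CAAAGTCCA was in 0.564% of all these genes, in 1 of 41 transporters of the proximal tubule, Slc3a1, and in 2 of 22 brush border genes, Treh and Pdzk1. It was also in 1 of 12 secreted and soluble proteins of this segment, 3 of 56 genes of amino acid and creatine metabolism, 1 of 41 macrophage genes and 1 of 19 endothelial genes. It was in 0 of 49 genes of fatty acid oxidation and 0 of 17 of gluconeogenesis. The windows of Slc3a1 and Treh, which fell under all 3 scalings, are shown with the match in capitals. That of Slc3a1, the heavy chain of the cystine carrier, is at chr17:85028284-85028340, plus strand, and that of Treh, the brush border enzyme trehalase, is at chr9:44673138-44673194, plus strand, where the motif lies on the minus strand.
Slc3a1: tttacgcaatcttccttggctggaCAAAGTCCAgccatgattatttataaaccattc
Treh: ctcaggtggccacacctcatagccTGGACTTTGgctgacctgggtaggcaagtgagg

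Injury genes of the tubule rose. Of 42 tested, 39 rose and 0 fell (33 and 0 under all 3 scalings), with a median log2 difference of 2.70. Havcr1, the kidney injury molecule KIM-1, was 2.75, 1.42, 1.47 and 1.22 FPKM in the control mice and 107, 165, 317 and 167 FPKM in the CKD mice (log2 difference 6.05 ± 0.33 SE, adjusted p = 3.24e-08). Lcn2, which encodes the siderophore-binding protein NGAL, was 3.88, 5.61, 20.8 and 4.54 FPKM in the control mice and 573, 1442, 1199.8 and 1223 FPKM in the CKD mice (log2 difference 7.05 ± 0.42 SE, adjusted p = 4.56e-08), the largest rise of any tested gene whose groups did not overlap. Control mouse 042301 was the highest of its group for Lcn2 and still far below every CKD mouse. Vcam1, an adhesion molecule of tubule cells that fail to repair, and Krt20, a keratin, rose by 4.60 and 4.60, Sox9, a factor of regenerating epithelium, by 2.88, and Cd44, the hyaluronan receptor, by 3.71. The keratins Krt8, Krt18 and Krt19 rose by 1.74, 2.72 and 3.89. The fibrinogen chains Fga, Fgb and Fgg rose by 2.82, 2.67 and 4.40, with 120102 the highest mouse for each.

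**Figure D2:**
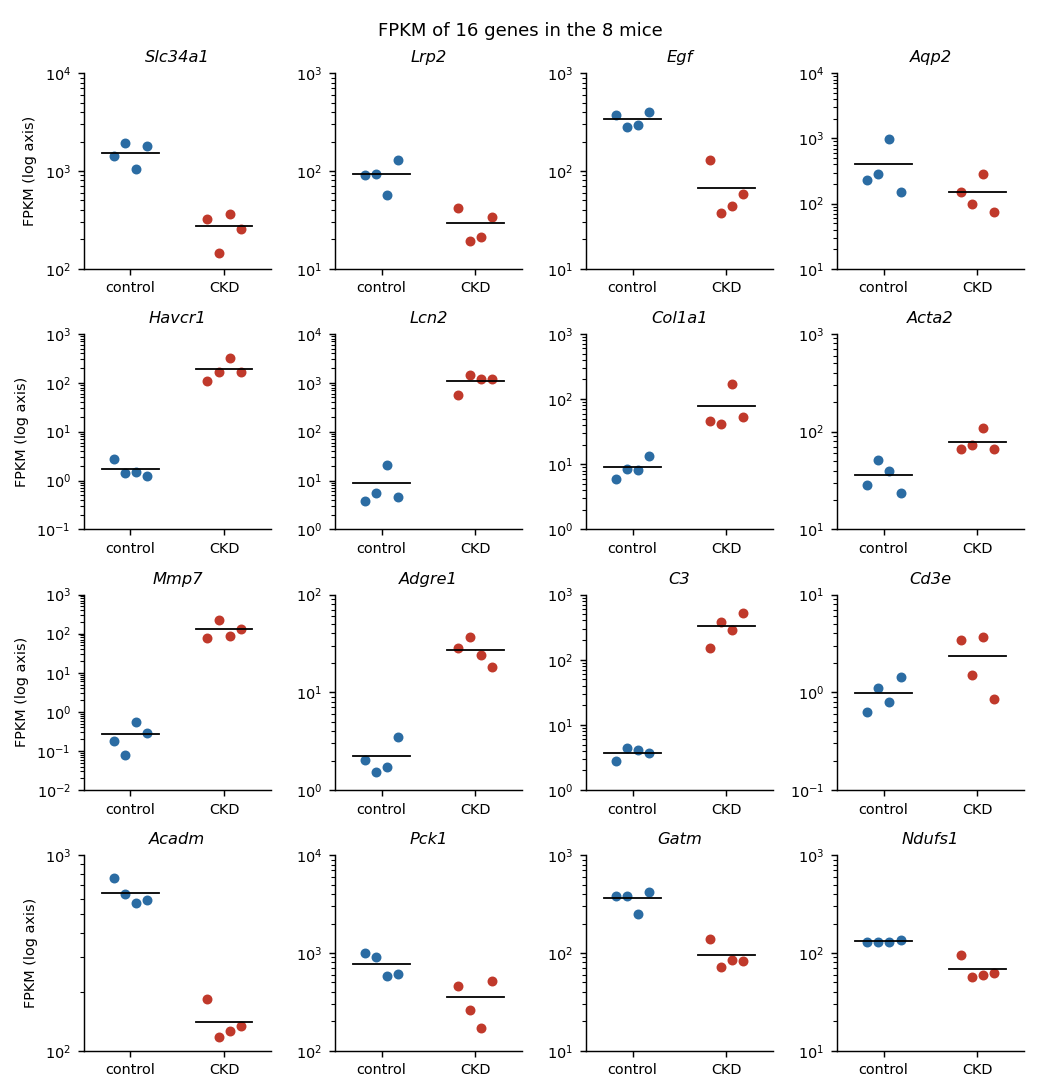
FPKM of 16 genes in the 4 control mice (blue) and 4 CKD mice (red), on log axes, with group means as black lines and the mice in the order given in the text. Slc34a1, Lrp2, Egf, Acadm, Pck1, Gatm and Ndufs1 lie lower in every CKD mouse, Havcr1, Lcn2, Col1a1, Acta2, Mmp7, Adgre1 and C3 lie higher in every CKD mouse, and Aqp2 and Cd3e overlap.

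Genes of the distal nephron moved in both directions on the deposited scale. Of 24 genes of the thick ascending limb, 7 rose and 6 fell (1 and 6 under all 3 scalings), of 24 of the distal convoluted and connecting tubule 7 rose and 5 fell (2 and 5), of 25 of principal cells 13 rose and 3 fell (4 and 2), and of 26 of intercalated cells 8 rose and 7 fell (1 and 7). The rises were 52% of the principal cell list, near the 54.6% of all genes, and its falls were near the 13.3% of all genes. Under all 3 scalings 18.3% of all genes rose and 12.3% fell. The medians of the lists, in the order given, were 0.30, 0.25, 0.46 and -0.06, below the median of all genes. After median-of-ratios rescaling they were -0.24, -0.31, -0.10 and -0.63, and falls outnumbered rises in each list, with 1 rise and 9 falls, 5 and 10, 4 and 8, and 2 and 16. With quantile normalization these were 6 and 7, 4 and 7, 6 and 6, and 1 and 12. Umod, uromodulin, was 1707, 1159, 1853 and 1432 FPKM in the control mice and 2476, 1953, 1950.5 and 1922 FPKM in the CKD mice (log2 difference 0.45, adjusted p = 0.0575), with groups that did not overlap, and the difference turned to -0.13 after median-of-ratios rescaling, while it passed with quantile normalization (0.81) and with equal totals without the 50 most abundant genes (0.50). Slc12a1, the furosemide-sensitive NKCC2 carrier, was 209.7, 119, 222 and 196 FPKM in the control mice and 573, 366, 97.1 and 333 FPKM in the CKD mice, with 110310 below every control mouse and the other 3 CKD mice above them (adjusted p = 0.188). Slc12a3, the thiazide-sensitive carrier, was 161, 242, 107 and 261 FPKM in the control mice and 350.0, 225, 209 and 354 FPKM in the CKD mice (adjusted p = 0.117), and the groups overlapped.

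Within these segments single genes fell further. Egf, which the thick ascending limb and distal convoluted tubule release as a growth factor, was 376, 284, 298 and 400.2 FPKM in the control mice and 129.8, 36.8, 43.8 and 58.1 FPKM in the CKD mice (log2 difference -2.49 ± 0.36 SE, adjusted p = 5.34e-05). Pvalb, a calcium buffer of the early distal convoluted tubule, was 64.6, 60.97, 68.3 and 54.1 FPKM in the control mice and 4.96, 3.16, 9.86 and 3.44 FPKM in the CKD mice (log2 difference -3.42 ± 0.44 SE, adjusted p = 2.02e-05). Kl, the FGF23 co-receptor klotho, had a log2 difference of -1.71. Some genes of calcium reabsorption rose. Trpv5, its apical channel, was 3.87, 3.57, 3.26 and 5.75 FPKM in the control mice and 20.1, 16.4, 16.02 and 28.4 FPKM in the CKD mice (log2 difference 2.04 ± 0.33 SE, adjusted p = 0.000123), and Slc8a1 and Atp2b1, which carry calcium out of the cell, rose by 1.55 and 1.43, Slc8a1 not under all 3 scalings. Calb1, the intracellular calcium carrier calbindin, had a log2 difference of 0.32 that did not pass and turned to -0.25 after median-of-ratios rescaling.

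Water and acid-base genes of the collecting duct were mixed. Aqp3, a basolateral water channel, was 91.96, 87.3, 128 and 92.6 FPKM in the control mice and 61.7, 29.3, 46.96 and 30.4 FPKM in the CKD mice (log2 difference -1.28 ± 0.28 SE, adjusted p = 0.00139). The vasopressin-regulated channel Aqp2 was 229.6, 285, 964 and 153 FPKM in the control mice and 153, 96.98, 284 and 73.3 FPKM in the CKD mice, fell on the deposited scale (log2 difference -1.24 ± 0.50 SE, adjusted p = 0.0415) and not with quantile normalization, and the groups overlapped. Control mouse 042301 carried the high value. The same mouse was highest for the mean of the principal cell list, at 4.91 against 4.04 to 4.18 on the log2(FPKM + 1) scale in the other 3 control mice, and for the papilla and urothelium list, at 3.56 against 0.88 to 2.79, while the CKD mice ranged from 2.09 to 3.51. How much of each kidney part was sampled, and its part in these values, was not tested. Scnn1a and Scnn1b, subunits of the sodium channel ENaC, rose by 0.46 and 0.59 on the deposited scale only, beside the median of 0.50 for all genes, and the difference of Scnn1a turned to -0.10 after median-of-ratios rescaling. St6gal1, a sialyltransferase, was 5.62, 5.04, 10.9 and 3.54 FPKM in the control mice and 22.6, 43.2, 33.1 and 30.6 FPKM in the CKD mice (log2 difference 2.25 ± 0.28 SE, adjusted p = 1.35e-05). In intercalated cells Slc26a4, the chloride-bicarbonate exchanger pendrin, was 18.8, 22.03, 15.8 and 25.6 FPKM in the control mice and 8.003, 4.93, 10.1 and 7.65 FPKM in the CKD mice (log2 difference -1.33 ± 0.22 SE, adjusted p = 0.000155), and Slc4a1, the exchanger AE1 of intercalated and red blood cells, was 15.7, 10.6, 18.5 and 15.9 FPKM in the control mice and 10.3, 4.09, 3.66 and 7.28 FPKM in the CKD mice (log2 difference -1.21 ± 0.34 SE, adjusted p = 0.00579). Atp6v0d2, a subunit of the proton pump, rose by 1.22 while Atp6v1c2 fell by 1.21.

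**Figure D3:**
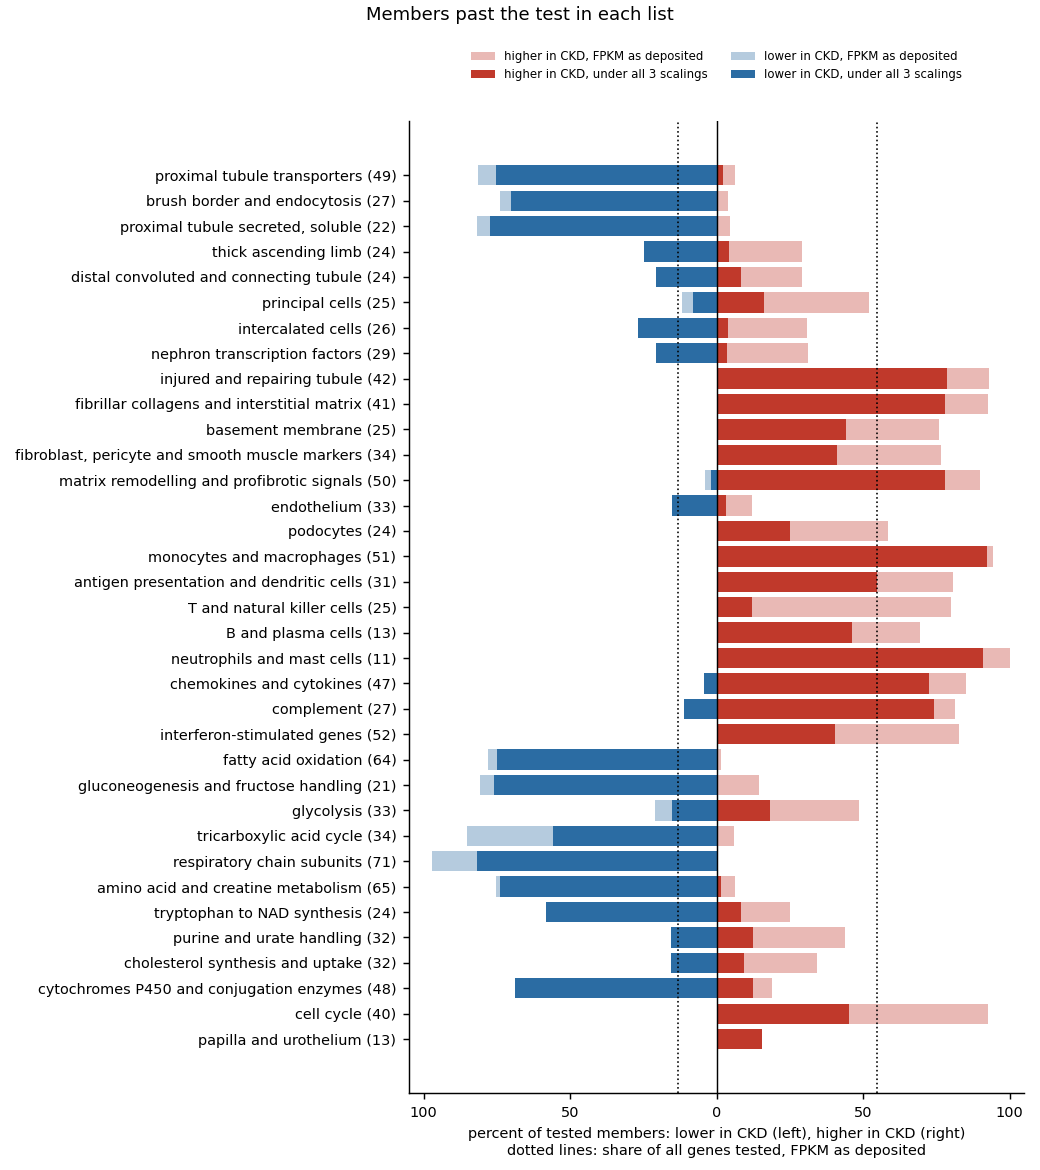
Share of the tested members of each list that were lower (left) or higher (right) in CKD mice, in pale colour on the deposited scale and in full colour under all 3 scalings, with the number tested in parentheses. Dotted lines mark the shares over all genes, 13.3% lower and 54.6% higher, and the lists of T and natural killer cells, cell cycle and interferon-stimulated genes go from 20 to 3, 37 to 18 and 43 to 21 higher members between pale and full colour.

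Interstitial matrix and fibrillar collagens gave 38 rises and 0 falls among 41 tested (32 and 0 under all 3 scalings), with a median of 2.08, and basement membrane genes 19 rises and 0 falls among 25 (11 and 0, and with quantile normalization 12 and 2), with a median of 1.17. Col1a1, the main chain of type I collagen, was 5.86, 8.38, 8.15 and 13.3 FPKM in the control mice and 46.7, 41.9, 168 and 52.8 FPKM in the CKD mice (log2 difference 2.78 ± 0.41 SE, adjusted p = 6.08e-05). CKD mouse 110310 stood above the other CKD mice, which were themselves above every control mouse. Fn1, fibronectin, was 7.501, 6.999, 5.58 and 9.11 FPKM in the control mice and 70.9, 109, 169 and 127 FPKM in the CKD mice (log2 difference 3.80 ± 0.25 SE, adjusted p = 8.49e-08). Col12a1, a collagen of the fibril surface, was 1.48, 1.81, 3.14 and 1.07 FPKM in the control mice and 27.5, 39.4, 60.4 and 36.7 FPKM in the CKD mice (log2 difference 3.86 ± 0.29 SE, adjusted p = 2.54e-07), and Col3a1, Tnc and Mfap5 rose by 3.55, 3.44 and 3.32. In the basement membrane Agrn, the proteoglycan agrin, was 21.8, 31.7, 48.96 and 23.7 FPKM in the control mice and 110.4, 189, 133 and 148 FPKM in the CKD mice (log2 difference 2.21 ± 0.25 SE, adjusted p = 6.43e-06). The chains Col4a1 and Col4a2, found in all basement membranes, rose by 1.55 and 1.67, whereas Col4a3 and Col4a4, chains of the mature glomerular membrane, had differences of 0.09 and 0.15 and did not pass.

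Of 34 fibroblast, pericyte and smooth muscle markers, 26 rose and 0 fell, and 14 rose under all 3 scalings. After median-of-ratios rescaling 18 rose and 4 fell. Pdgfrb, the platelet-derived growth factor receptor of pericytes and fibroblasts, was 8.61, 7.101, 6.83 and 8.38 FPKM in the control mice and 25.8, 25.04, 31.02 and 25.7 FPKM in the CKD mice (log2 difference 1.68 ± 0.22 SE, adjusted p = 1.89e-05), and Pdgfra rose by 2.09. Acta2, the actin of smooth muscle and myofibroblasts, was 28.5, 51.8, 39.7 and 23.6 FPKM in the control mice and 67.2, 72.5, 109 and 66.3 FPKM in the CKD mice (log2 difference 1.14 ± 0.24 SE, adjusted p = 0.000935), and missed the threshold after median-of-ratios rescaling (0.58, adjusted p = 0.0588). Lox, the collagen cross-linking oxidase, was 1.23, 0.678, 1.47 and 0.887 FPKM in the control mice and 14.8, 19.6, 18.1 and 21.9 FPKM in the CKD mice (log2 difference 3.25 ± 0.18 SE, adjusted p = 3.53e-08). Myh11 and Cnn1, contractile proteins of differentiated smooth muscle, had differences of -0.31 and -0.25 and did not pass, and Ren1, renin, stood at -0.56, also without passing.

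Genes of matrix remodelling and profibrotic signalling gave 45 rises and 2 falls among 50 (39 and 1 under all 3 scalings), with a median of 1.72. A control mean below 1 FPKM was found for 16 of the 50, which could pass the filter through CKD mice, iron-treated ones included, and had little room to fall. Mmp7, matrilysin, was 0.176, 0.07895, 0.544 and 0.291 FPKM in the control mice and 76.9, 217, 85.5 and 132 FPKM in the CKD mice (log2 difference 6.55 ± 0.40 SE, adjusted p = 4.9e-08). Timp1, an inhibitor of matrix metalloproteinases, was 1.28, 1.77, 2.88 and 2.04 FPKM in the control mice and 90.98, 298, 278 and 156 FPKM in the CKD mice (log2 difference 5.99 ± 0.35 SE, adjusted p = 4.09e-08). Both were low in all control mice. Mmp2, Mmp14 and Mmp12 rose by 3.85, 3.92 and 5.21. Of the ligands, Tgfb1 was 6.802, 7.26, 9.28 and 6.69 FPKM in the control mice and 19.6, 21.3, 52.4 and 21.3 FPKM in the CKD mice (log2 difference 1.69 ± 0.37 SE, adjusted p = 0.00125), with 110310 again set apart, and Tgfb2, Pdgfb, Ctgf and Edn1 rose by 2.03, 1.72, 1.98 and 3.59. Timp3, the tissue inhibitor bound to matrix, was 412, 398, 319.7 and 469 FPKM in the control mice and 249, 211, 176 and 273 FPKM in the CKD mice (log2 difference -0.82 ± 0.17 SE, adjusted p = 0.00077), and with quantile normalization the difference was -0.46 and did not pass. P4ha1, a collagen prolyl hydroxylase, was the other that fell. The AP-1 motif TGACTCA was found in the promoters of 4.82% of all genes and of 6 of 32 genes of this list, Mmp3, Mmp7, Mmp12, Mmp13, Adam19 and Il11, of which Mmp13 did not pass the test (log2 difference 0.13). The windows of the 3 metalloproteinases that rose, which share a cluster on chromosome 9, are shown with the match in capitals, at chr9:7692003-7692057 for Mmp7, chr9:7347306-7347360 for Mmp12 and chr9:7445752-7445806 for Mmp3, plus strand, with the motif on the minus strand in each.
Mmp7: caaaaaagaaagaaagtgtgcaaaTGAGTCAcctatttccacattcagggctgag
Mmp12: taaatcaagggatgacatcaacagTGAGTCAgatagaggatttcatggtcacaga
Mmp3: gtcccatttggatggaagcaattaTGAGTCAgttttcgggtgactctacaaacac

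Endothelial genes mostly did not pass the test on the deposited scale. Of 33 tested, 4 rose and 5 fell (1 and 5 under all 3 scalings), whereas 1 rose and 17 fell after median-of-ratios rescaling and 1 rose and 16 fell with quantile normalization, and the median was -0.01, below the 0.50 of all genes, and -0.47 after median-of-ratios rescaling. Pecam1, the adhesion molecule CD31, was 21.1, 18.01, 31.7 and 20.6 FPKM in the control mice and 20.3, 18.9, 24.9 and 16.5 FPKM in the CKD mice (log2 difference -0.16, adjusted p = 0.453), and the groups overlapped. It passed as lower after median-of-ratios rescaling (-0.71) and with quantile normalization (-0.51). Kdr, the main receptor for VEGF, was 9.603, 8.91, 10.8 and 12.9 FPKM in the control mice and 6.52, 5.54, 5.91 and 6.904 FPKM in the CKD mice (log2 difference -0.67 ± 0.19 SE, adjusted p = 0.00714). Igfbp3, a binding protein for insulin-like growth factors, was 132, 108, 78.02 and 135 FPKM in the control mice and 29.6, 34.4, 35.9 and 32.96 FPKM in the CKD mice (log2 difference -1.71 ± 0.19 SE, adjusted p = 5.92e-06). Cd93 was 3.195, 2.73, 3.91 and 3.93 FPKM in the control mice and 10.4, 11.7, 9.07 and 10.3 FPKM in the CKD mice (log2 difference 1.36 ± 0.17 SE, adjusted p = 1.39e-05), the one gene of the list that rose under all 3 scalings, which myeloid cells also express. Among podocyte genes 14 of 24 rose and 0 fell (6 and 0 under all 3 scalings). The 14 rises were 58.3% of the list, near the 54.6% of all genes. The median was 0.90 against 0.50 for all genes, and 0.38 after median-of-ratios rescaling. Kirrel was 1.83, 1.58, 1.79 and 1.75 FPKM in the control mice and 11.1, 8.85, 7.54 and 12.3 FPKM in the CKD mice (log2 difference 1.98 ± 0.23 SE, adjusted p = 8.13e-06). Nphs1, nephrin of the slit diaphragm, had a difference of 0.71 and did not pass.

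Of 51 monocyte and macrophage genes tested, 48 rose and 0 fell, 47 of them under all 3 scalings, and the median was 2.98. The summed share of these genes in the total went from between 0.0855 and 0.15% in control mice to between 1.07 and 2.06% in CKD mice. A control mean below 1 FPKM was found for 13 of the 51, which could pass the filter through CKD mice, iron-treated ones included, and had little room to fall. Lyz2, lysozyme M, was 28.2, 24.8, 85.2 and 54.99 FPKM in the control mice and 970.0, 1915, 1265 and 952 FPKM in the CKD mice (log2 difference 4.81 ± 0.38 SE, adjusted p = 4.49e-07). Csf1r, the receptor that maintains macrophages, rose by 1.68, the complement genes of macrophages C1qa, C1qb and C1qc by 3.41, 3.50 and 3.55, and Trem2 and Gpnmb, which mark lipid-handling macrophages, by 4.41 and 4.29. Mrc1, Arg1 and Cd163, counted with reparative macrophages, rose by 3.49, 3.32 and 1.71 while the inflammatory cytokines Il1b and Tnf rose by 3.00 and 2.11. Mertk, Retnla and Folr2 did not pass. Mmp12, Apoe and Lgals3 belong to this list and are also made by other cells.

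Neutrophil genes were high in some CKD mice more than in others. Only 11 of 31 listed neutrophil and mast cell genes passed the filter on low values, and 9 of these had a control mean below 1 FPKM. The count of 11 rises among 11 thus covers mostly genes that could pass through CKD mice, iron-treated ones included. S100a8, a calprotectin chain, was 0.9199, 1.29, 3.08 and 0.968 FPKM in the control mice and 28.96, 109, 24.3 and 69.5 FPKM in the CKD mice (log2 difference 4.34 ± 0.43 SE, adjusted p = 2.6e-06). Csf3r, the granulocyte colony-stimulating factor receptor, was 0.474, 0.195, 0.883 and 0.468 FPKM in the control mice and 6.39, 13.8, 7.92 and 10.6 FPKM in the CKD mice (log2 difference 2.80 ± 0.29 SE, adjusted p = 3.74e-06). In S100a8 mice 022301 and 120102 were above 021320 and 110310, and all were above the control mice. The granule proteins Mpo, Elane and Camp, made in marrow precursors, were at a mean of 0 FPKM in control mice and of 0.00555, 0.0470 and 0.0342 FPKM in CKD mice, and were not tested.

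Of 47 chemokines, cytokines and their receptors, 40 rose and 2 fell (34 and 2 under all 3 scalings), with a median of 2.11. A control mean below 1 FPKM was found for 17 of the 47, which could pass the filter through CKD mice, iron-treated ones included, and had little room to fall. Cxcl1, a neutrophil attractant, was 0.338, 0.827, 0.658 and 0.278 FPKM in the control mice and 23.4, 73.7, 19.2 and 65.3 FPKM in the CKD mice (log2 difference 4.71 ± 0.37 SE, adjusted p = 3.81e-07). Cxcl5 was 0, 0, 0.036 and 0.174 FPKM in the control mice and 31.6, 96.7, 26.03 and 49.5 FPKM in the CKD mice (log2 difference 5.44 ± 0.36 SE, adjusted p = 9.5e-08), with 2 control mice listed at 0. Ccl2, the main attractant of monocytes, was 0.6397, 1.41, 1.15 and 2.39 FPKM in the control mice and 24.9, 40.9, 24.4 and 16.8 FPKM in the CKD mice (log2 difference 3.51 ± 0.28 SE, adjusted p = 3.95e-07), and its receptor Ccr2 rose by 2.34. For each of these 3 attractants 022301 was the highest CKD mouse. Ccl28, a mucosal chemokine, was 5.87, 6.86, 6.89 and 12.8 FPKM in the control mice and 3.99, 5.36, 0.923 and 4.92 FPKM in the CKD mice (log2 difference -1.01 ± 0.34 SE, adjusted p = 0.0176), and Il15 fell by 0.76. Cxcl12 and Cxcl9 had differences of -0.30 and 0.11 and did not pass.

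Of 27 complement genes, 22 rose and 3 fell (20 and 3 under all 3 scalings), median 2.55. C3, on which all routes of activation meet, was 2.77, 4.45, 4.15 and 3.73 FPKM in the control mice and 151, 384, 284 and 514 FPKM in the CKD mice (log2 difference 6.01 ± 0.32 SE, adjusted p = 2.94e-08). The soluble regulator Cfi rose by 3.76, and the receptors C3ar1 and C5ar1 by 3.15 and 3.12. C8a, a chain of the membrane attack complex, was 10.1, 9.64, 15.1 and 8.36 FPKM in the control mice and 0.7198, 0.286, 1.56 and 0.221 FPKM in the CKD mice (log2 difference -2.83 ± 0.30 SE, adjusted p = 4.2e-06), and the membrane regulator Cd55 and C1rl fell by 1.004 and 0.86. Cfb, factor B, stood at -0.43 with 1 failed estimate among the CKD mice and did not pass.

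T and natural killer cell genes gave 20 rises and 0 falls among the 25 of 45 that passed the filter, but 3 rises under all 3 scalings, namely Thy1, Il7r and Skap1, and Thy1 is also a fibroblast gene. A control mean below 1 FPKM was found for 17 of the 25. The counts thus cover mostly genes that could pass the filter through CKD mice, iron-treated ones included, and had little room to fall. Cd3e, part of the T cell receptor complex, was 0.624, 1.098, 0.798 and 1.44 FPKM in the control mice and 3.44, 1.501, 3.66 and 0.863 FPKM in the CKD mice (log2 difference 0.67, adjusted p = 0.0577), and with quantile normalization the sign turned (-0.12). Cd8a was 0.307, 0.596, 0.726 and 1.21 FPKM in the control mice and 1.22, 2.31, 1.84 and 0.699 FPKM in the CKD mice (log2 difference 0.54 ± 0.21 SE, adjusted p = 0.0332), turned to -0.23 with quantile normalization, and the groups overlapped. In both genes 120102 lay within the control range. Of 30 B and plasma cell genes 13 were tested and 9 rose (6 under all 3 scalings, and with quantile normalization 7 rose and 2 fell), led by Sdc1, syndecan-1, at 4.95, 5.63, 7.47 and 4.86 FPKM in the control mice and 54.4, 65.03, 44.5 and 49.4 FPKM in the CKD mice (log2 difference 3.02 ± 0.19 SE, adjusted p = 6.13e-08), which epithelia also carry. The B cell receptor gene Cd79a had a mean of 0.216 FPKM in control and of 0.193 FPKM in CKD mice and was not tested, and Jchain had a difference of 1.31 that did not pass.

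Of 31 genes of antigen presentation, 25 rose and 0 fell (17 and 0 under all 3 scalings), with a median of 1.26. H2-Aa, a chain of the class II complex, was 147, 161, 280.0 and 203 FPKM in the control mice and 736, 1208, 1111 and 449 FPKM in the CKD mice (log2 difference 2.09 ± 0.28 SE, adjusted p = 2.91e-05), and its companion Cd74, the invariant chain, was 268, 332, 479 and 398 FPKM in the control mice and 1021, 1400.1, 2759.6 and 742 FPKM in the CKD mice (log2 difference 1.86 ± 0.35 SE, adjusted p = 0.000372). CKD mouse 120102 was the lowest CKD mouse for both. Genes of the histocompatibility complex are near copies of each other, and how reads were shared between them is not given in the sources used here.

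Interferon-stimulated genes rose on the deposited scale in 43 of 52 cases with 0 falls, and in 21 under all 3 scalings, with a median of 1.25. With quantile normalization 25 rose and 5 fell. Slfn2 was 6.97, 7.37, 11.8 and 6.44 FPKM in the control mice and 33.2, 53.5, 48.02 and 30.3 FPKM in the CKD mice (log2 difference 2.20 ± 0.21 SE, adjusted p = 1.55e-06). Oasl2 and Ddx58, a sensor of viral RNA, rose by 1.97 and 1.93. Isg15, a ubiquitin-like protein, was 7.94, 6.43, 21.8 and 7.99 FPKM in the control mice and 28.7, 27.4, 41.1 and 13.9 FPKM in the CKD mice (log2 difference 1.32 ± 0.43 SE, adjusted p = 0.0151), with control mouse 042301 inside the CKD range, and it did not pass under the other scalings. Rsad2, Cmpk2 and Igtp had differences of -0.08, -0.06 and -0.20 and did not pass. The core of the interferon response element, TTTC followed by any 2 bases and TTTC again, was in the promoters of 3.86% of all genes and of 21 of 37 genes of this list. Windows of 2 genes that rose on the deposited scale are shown, with all matches inside the window in capitals. They lie at chr4:156200863-156200920, minus strand, for Isg15, whose matches overlap and lie on the other strand, and at chr19:34640761-34640818, plus strand, for Ifit1, which has 2 separate matches.
Isg15: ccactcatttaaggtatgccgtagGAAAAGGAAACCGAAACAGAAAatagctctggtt
Ifit1: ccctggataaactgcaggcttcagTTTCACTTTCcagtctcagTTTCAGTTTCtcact

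Of 64 genes of fatty acid oxidation tested, 50 fell and 1 rose (48 and 0 under all 3 scalings), with a median of -1.07. Acadm, medium-chain acyl-CoA dehydrogenase, was 768, 636, 566 and 592 FPKM in the control mice and 185, 118, 126 and 134 FPKM in the CKD mice (log2 difference -2.19 ± 0.20 SE, adjusted p = 1.38e-06). The fatty acid translocase Cd36 fell by 2.69, peroxisomal Ehhadh by 2.44, Cpt2 of the inner membrane by 1.44, and the electron carriers Etfa and Etfb by 1.39 and 1.52. Acsm3, a medium-chain acyl-CoA synthetase, was 639, 495, 419 and 639 FPKM in the control mice and 54.3, 8.03, 57.9 and 8.44 FPKM in the CKD mice (log2 difference -4.56 ± 0.75 SE, adjusted p = 0.000148), and CKD mice 021320 and 110310 were above 022301 and 120102. Cpt1a, which sets entry into the mitochondrion, was 88.8, 89.7, 57.7 and 115 FPKM in the control mice and 72.2, 60.6, 59.7 and 86.5 FPKM in the CKD mice (log2 difference -0.30, adjusted p = 0.287). It passed as lower after median-of-ratios rescaling (-0.88) and not with quantile normalization (-0.22). Hadha and Acsl1, with 0.20 and 0.02, did not pass on the deposited scale either and turned to -0.37 and -0.55 after median-of-ratios rescaling. The single rise was Cyp4a14, a fatty acid hydroxylase, whose groups overlapped, on the deposited scale only.

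Of 21 genes of gluconeogenesis and fructose use, 17 fell and 3 rose (16 and 0 under all 3 scalings), median -1.64. Pck1, the cytosolic enzyme that opens gluconeogenesis, was 992, 912, 578 and 616 FPKM in the control mice and 461, 262, 169 and 516 FPKM in the CKD mice (log2 difference -1.23 ± 0.44 SE, adjusted p = 0.0235), and did not pass with quantile normalization. Fbp1, fructose-1,6-bisphosphatase, was 811, 865, 518 and 836 FPKM in the control mice and 267, 98.6, 239 and 191 FPKM in the CKD mice (log2 difference -1.99 ± 0.34 SE, adjusted p = 0.000171). G6pc, which frees glucose, and Khk, which phosphorylates fructose, fell by 1.82 and 1.94. Aldh1b1, Pck2 and Fbp2 rose by 0.93, 0.90 and 0.54, none of them under all 3 scalings. In glycolysis isoforms differed in direction. Of 33 glycolytic genes, 16 rose and 7 fell (6 and 5 under all 3 scalings), and after median-of-ratios rescaling 12 rose and 12 fell and the median of 0.33 became -0.19. The rises on the deposited scale were 48.5% of the list and the falls 21.2%, not far from the 54.6% and 13.3% of all genes. Under all 3 scalings 18.3% of all genes rose and 12.3% fell. Hk2, a hexokinase low in healthy kidney, was 0.253, 0.754, 0.539 and 0.102 FPKM in the control mice and 7.02, 17.1, 11.9 and 10.5 FPKM in the CKD mice (log2 difference 3.13 ± 0.22 SE, adjusted p = 1.83e-07). Pkm, the pyruvate kinase of proliferating and non-hepatic cells, was 98.3, 93.6, 154 and 79.3 FPKM in the control mice and 194, 215, 253 and 207 FPKM in the CKD mice (log2 difference 1.06 ± 0.18 SE, adjusted p = 0.00016), and Eno2, Hk3, Pfkp and Slc16a3, the lactate exporter MCT4, rose by 2.12, 1.70, 1.34 and 1.70. The abundant enzymes Gapdh, Tpi1, Pgam1 and Pgk1 fell by 0.86, 0.66, 0.55 and 0.52, Tpi1 and Pgk1 not under all 3 scalings, and Ldha and Ldhb did not pass.

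In the tricarboxylic acid cycle 29 of 34 fell and 2 rose (19 and 0 under all 3 scalings), median -0.67, and among nuclear-encoded respiratory chain subunits 69 of 71 fell and 0 rose (58 and 0), median -0.85, within a range from -1.33 (Ndufv3) to -0.18 (Atp5g2). Sdhb, a subunit shared by the cycle and the chain, was 436, 451, 589 and 377 FPKM in the control mice and 224, 158, 234 and 164 FPKM in the CKD mice (log2 difference -1.25 ± 0.17 SE, adjusted p = 3.43e-05). Ndufs1, of complex I, was 130.1, 131, 129.9 and 136 FPKM in the control mice and 94.6, 56.8, 59.4 and 63.1 FPKM in the CKD mice (log2 difference -0.96 ± 0.17 SE, adjusted p = 0.000268), with the control mice close to each other. Idh2 was 271, 269, 300.2 and 250.1 FPKM in the control mice and 206, 163, 169 and 186 FPKM in the CKD mice (log2 difference -0.59 ± 0.14 SE, adjusted p = 0.00186), and with quantile normalization its difference was -0.15 and did not pass. The 2 subunits that did not pass were Atp5g2 and Ndufa7. Me1, the cytosolic malic enzyme that makes NADPH, fell by 2.24, whereas mitochondrial Me2 rose by 1.01, not under all 3 scalings.

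Amino acid and creatine metabolism fell in 49 of 65 genes and rose in 4 (48 and 1 under all 3 scalings), median -1.20. Gatm, which makes the precursor of creatine, was 384, 384, 251 and 423 FPKM in the control mice and 139, 71.4, 85.3 and 83.4 FPKM in the CKD mice (log2 difference -1.94 ± 0.37 SE, adjusted p = 0.000466). Hpd, of tyrosine breakdown, was 27.01, 27.96, 19.03 and 20.2 FPKM in the control mice and 4.903, 2.82, 3.798 and 5.21 FPKM in the CKD mice (log2 difference -2.25 ± 0.36 SE, adjusted p = 0.000106), and Acy3, an aminoacylase, was 1858, 2151, 2332 and 1853 FPKM in the control mice and 264, 95.7, 409 and 90.2 FPKM in the CKD mice (log2 difference -3.53 ± 0.48 SE, adjusted p = 2.86e-05). Ass1 and Asl, which make arginine from citrulline, fell by 2.67 and 1.04, and the glycine and serine enzymes Dmgdh, Sardh and Shmt2 by 2.35, 2.06 and 1.96. Arg2, the mitochondrial arginase, went the other way, at 7.38, 4.21, 8.57 and 4.06 FPKM in the control mice and 46.5, 50.7, 54.5 and 54.6 FPKM in the CKD mice (log2 difference 2.95 ± 0.22 SE, adjusted p = 2.63e-07). The ammonia genes Glud1 and Glul had differences of -0.31 and -0.14 and did not pass.

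Of 24 genes of NAD metabolism, 14 fell and 6 rose (14 and 2 under all 3 scalings, and 17 and 2 after median-of-ratios rescaling), median -0.69. Kmo, which hydroxylates kynurenine, was 65.7, 69.3, 47.5 and 77.3 FPKM in the control mice and 28.2, 12.9, 16.95 and 18.5 FPKM in the CKD mice (log2 difference -1.74 ± 0.29 SE, adjusted p = 0.000144). Haao, the dioxygenase before quinolinate, was 177, 191, 221 and 176 FPKM in the control mice and 42.4, 19.5, 45.04 and 19.5 FPKM in the CKD mice (log2 difference -2.66 ± 0.30 SE, adjusted p = 7.29e-06), and Qprt, which turns quinolinate into the NAD precursor, had a difference of -0.79. The salvage enzyme Nampt was 43.5, 36.8, 20.6 and 35.3 FPKM in the control mice and 42.6, 42.8, 20.2 and 52.7 FPKM in the CKD mice (log2 difference 0.18, adjusted p = 0.595), turned to -0.38 after median-of-ratios rescaling, and overlapped between groups. Nnmt and Cd38, which use up nicotinamide and NAD, rose by 1.86 and 1.55.

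Purine genes are of interest because adenine is a purine. Of 32 tested, 14 rose and 5 fell (4 and 5 under all 3 scalings), median 0.37, below that of all genes, and -0.10 after median-of-ratios rescaling, where 5 rose and 12 fell. The rises were 43.8% of the list, below the 54.6% of all genes, and the falls 15.6%, near the 13.3% of all genes. Under all 3 scalings 18.3% of all genes rose and 12.3% fell. Xdh, the oxidase that makes 2,8-dihydroxyadenine and urate, was 4.26, 4.55, 2.42 and 4.11 FPKM in the control mice and 13.9, 18.2, 10.7 and 21.99 FPKM in the CKD mice (log2 difference 1.81 ± 0.23 SE, adjusted p = 2.1e-05). Gda, guanine deaminase, was 2.32, 2.88, 0.772 and 2.301 FPKM in the control mice and 10.3, 12.4, 6.67 and 13.8 FPKM in the CKD mice (log2 difference 1.96 ± 0.28 SE, adjusted p = 4.18e-05), and Ampd3 rose by 1.42. Those that fell were the urate carriers Slc22a12, Slc17a1, Slc17a3 and Abcg2, and Adk, adenosine kinase. Hprt, the salvage enzyme of hypoxanthine and guanine, rose by 0.31, less than the median of all genes, and stood at -0.26 after median-of-ratios rescaling.

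Of 32 cholesterol genes, 11 rose and 5 fell (3 and 5 under all 3 scalings). The rises were 34.4% of the list, below the 54.6% of all genes, and the falls 15.6%, near the 13.3% of all genes. Under all 3 scalings 18.3% of all genes rose and 12.3% fell. The median of 0.03 became -0.51 after median-of-ratios rescaling, where 5 rose and 12 fell. Cyp51, of cholesterol synthesis, was 96.1, 72.8, 87.4 and 82.5 FPKM in the control mice and 39.1, 20.2, 27.9 and 18.7 FPKM in the CKD mice (log2 difference -1.69 ± 0.25 SE, adjusted p = 5.56e-05), and Hmgcs1, an earlier enzyme of the same route, fell by 1.04. Abca1, the exporter to lipoproteins, was 1.24, 1.38, 1.37 and 2.78 FPKM in the control mice and 14.9, 22.6, 7.803 and 25.4 FPKM in the CKD mice (log2 difference 2.71 ± 0.30 SE, adjusted p = 6.28e-06). Of 48 cytochromes P450 and conjugation enzymes, 33 fell and 9 rose (33 and 6 under all 3 scalings), median -1.67. Cyp2e1 was 902, 1205, 602 and 1155 FPKM in the control mice and 153, 89.8, 144 and 114 FPKM in the CKD mice (log2 difference -2.92 ± 0.24 SE, adjusted p = 6.21e-07). Cyp2d12 was 29.7, 24.9, 25.2 and 30.1 FPKM in the control mice and 0.3598, 0.1195, 0.2202 and 0.287 FPKM in the CKD mice (log2 difference -4.51 ± 0.15 SE, adjusted p = 8.19e-10). Cyp27b1, which activates vitamin D, was 5.25, 2.06, 2.46 and 0.903 FPKM in the control mice and 8.73, 16.4, 5.57 and 38.9 FPKM in the CKD mice (log2 difference 2.12 ± 0.51 SE, adjusted p = 0.00247), with 120102 the highest mouse, and Cyp24a1, which inactivates it, had a difference of 1.24 that did not pass. Close copies among the Cyp2, Cyp4a and Ugt genes and among Slc22a19, Slc22a28 and Slc22a30 may share reads, so single values within these families are uncertain.

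**Figure D4:**
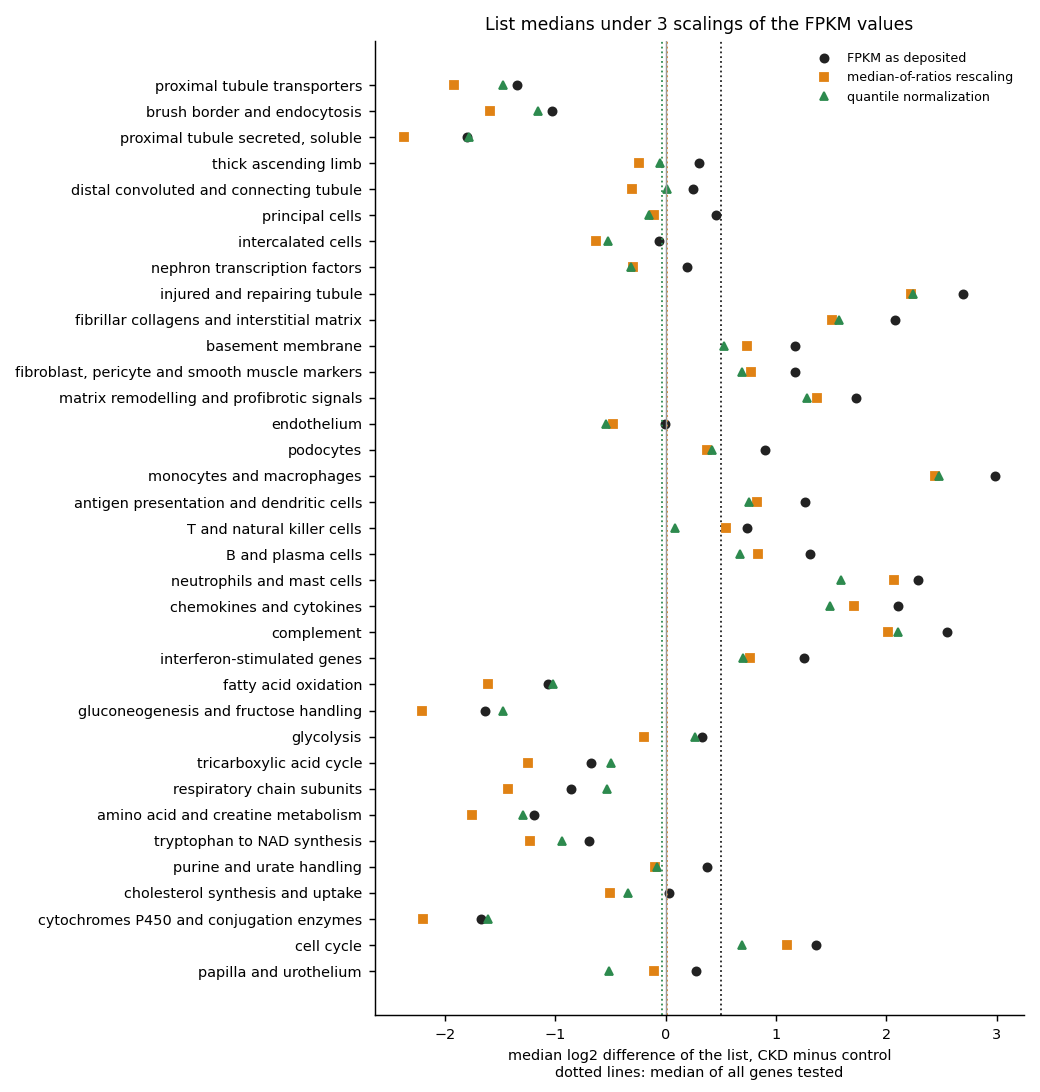
Median log2 difference of each list, CKD minus control, on the deposited scale (black circles), after median-of-ratios rescaling (orange squares) and with quantile normalization (green triangles), with the median of all genes under each scaling as a dotted line. The proximal tubule and fatty acid lists are negative and the injury, matrix and macrophage lists positive under all 3, while thick ascending limb, distal convoluted and connecting tubule, principal cells, transcription factors, glycolysis, purine and cholesterol genes change sign after median-of-ratios rescaling.

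Of 40 cell cycle genes 37 rose and 0 fell, with a median of 1.37, and 18 rose under all 3 scalings. A control mean below 1 FPKM was found for 18 of the 40. These could pass the filter through CKD mice, iron-treated ones included, and had little room to fall. Mki67, a marker of cycling cells, was 0.258, 0.248, 0.3103 and 0.561 FPKM in the control mice and 2.89, 2.87, 3.75 and 3.03 FPKM in the CKD mice (log2 difference 1.62 ± 0.25 SE, adjusted p = 8.3e-05). Cdkn1a, the p21 inhibitor of the cycle, was 2.35, 2.403, 12.6 and 3.98 FPKM in the control mice and 26.6, 39.9, 53.8 and 51.3 FPKM in the CKD mice (log2 difference 3.01 ± 0.39 SE, adjusted p = 1.93e-05), the largest rise of the list, and Cdkn2a was listed at 0 in all control mice and at 1.43, 1.55, 1.58 and 1.58 FPKM in the CKD mice. Ccnd1 had a difference of 0.27 that did not pass and turned to -0.29 after median-of-ratios rescaling. Among adipocyte genes the defining Adipoq and Plin1 had means of 0.435 and 0.253 FPKM in control and of 0.147 and 0.0410 FPKM in CKD mice, and were not tested. Control mouse 012822 carried both control means, with Adipoq at 1.27 FPKM and Plin1 at 0.802 FPKM. The other control mice were at 0.0283 to 0.225 and 0.0679 to 0.0747 FPKM. Fabp4 and Car3 fell, and 012822 was also the highest control mouse for Car3. Of 14 adrenal genes listed only Akr1b7 was tested, and it did not pass. Haemoglobin genes ranged widely within each group, with Hbb-bs at 33.3, 25.7, 52.9 and 7.33 FPKM in the control mice and 3.62, 73.9, 71.9 and 6.44 FPKM in the CKD mice and no difference past the test. Among the 13 papilla and urothelium genes S100a6 and Sfn rose and the uroplakins did not pass, with Upk3a at 0, 6.75, 7.88 and 0.541 FPKM in the control mice and 7.43, 0.892, 0.0427 and 0.626 FPKM in the CKD mice.

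The CKD mice were not alike. Mouse 022301 had the lowest mean of the proximal tubule transporters, at 4.62 on the log2(FPKM + 1) scale against 5.01 to 5.37 in the other CKD mice, and the highest of the macrophage list, at 5.89 against 5.05 to 5.28. Mouse 110310 had the highest mean of interstitial matrix, at 4.85 against 4.37 to 4.42, and of the cell cycle list, at 3.32 against 2.81 to 2.89. Mouse 120102 had the lowest mean of interferon-stimulated genes, at 3.53 against 4.07 to 4.36, of T and natural killer cells, at 1.17 against 1.92 to 2.27, and of antigen presentation, at 4.17 against 4.58 to 5.06. Mouse 021320 had the lowest mean of the injury list, at 5.65 against 6.14 to 6.27. No labels tie these mice to different diets or times, and with 1 library per mouse these differences carry no test.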

How the data were processed

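Whole kidneys of 12 mice were profiled with stranded mRNA libraries sequenced single-end for 50 cycles. The authors deposited FPKM per protein-coding gene and mouse with an estimation status. Per the labels, the submitters' processing notes name bcl2fastq 2.19, STAR 2.5.2, Cufflinks 2.1.1 and GRCm38, and the annotation release and the number of reads per mouse are not given in the sources used here, so that no counting interval could be set. FPKM are relative to all mapped reads of a mouse. Values with a failed status (30 in 17 genes) were treated as missing.

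Genes that reached 1 FPKM in 4 or more of the 12 mice entered the test. Limma (version 3.58.1, R version 4.3.3) was run on log2 of FPKM plus a pseudocount of 1, in 1 fit over all 12 mice with a trended prior, and adjusted by Benjamini-Hochberg at 0.05. Differences on this scale understate the change of low genes. Single values were also compared by an exact two-sided permutation test over 70 arrangements, whose smallest p is 0.0286. The study's own count-based test was not repeated because no counts were used here. The fit was tested on simulated data. The labels say nothing of cages or litters, so the mice of a group were treated as independent, which could not be checked. The p-values set the differences against a spread estimated over all 12 mice.

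The named genes were 2 anchors for each list, the largest rise and fall of each list among genes past the test whose groups did not overlap, and the 10 largest rises and falls overall. Further members are given as examples chosen after their values were seen. Results for some genes are not reported here. The members, lists and tests were chosen with earlier results of these data known. Where a symbol had several rows the one with the highest mean was used. Alternatives covered the pseudocount, the filter, the scaling, the mice in the fit, mouse weights, the prior, the threshold and each mouse left out, and a correction for GC content and transcript length was added after seeing the data. Promoters came from RefSeq on GRCm38.p6. Genes not matched by symbol, such as Dpep1, Irf8 and Cxcl11, were not analysed here.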

Additional observations from a re-analysis of the deposited data

Results flagged for a closer look

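In groups of 4 mice the gap between the highest or lowest mouse and its nearest neighbour was divided by the range of the group. This ratio passed Dixon's 95% critical value in 26 of 332 groups of 4 tested, and chance gives about 1 in 20. The ratio was computed on log2(FPKM + 1) for genes and lists alike. Values of genes are printed in FPKM, values of lists are means of log2(FPKM + 1), and each value is set against the range of the other 3 mice. CKD mouse 021320 had Umod 2476 FPKM against 1922 to 1953 (ratio 0.937). CKD mouse 110310 had Col1a1 168 FPKM against 41.9 to 52.8 (ratio 0.834), Pdgfrb 31.0 FPKM against 25.04 to 25.8 (ratio 0.859) and Tgfb1 52.4 FPKM against 19.6 to 21.3 (ratio 0.915). CKD mouse 110310 had Grhl2 5.62 FPKM against 7.61 to 7.69 (ratio 0.964), Aldh1b1 2.88 FPKM against 1.74 to 1.84 (ratio 0.897) and the mean of fibrillar collagens and interstitial matrix 4.85 against 4.37 to 4.42 (ratio 0.891). CKD mouse 110310 had the mean of cell cycle 3.32 against 2.81 to 2.89 (ratio 0.843) and the mean of adipocytes 4.18 against 3.59 to 3.69 (ratio 0.833). Control mouse 012822 had Car3 24.6 FPKM against 9.98 to 11.4 (ratio 0.859). Control mouse 042301 had Isg15 21.8 FPKM against 6.43 to 7.99 (ratio 0.831), Fbp1 518 FPKM against 811 to 865 (ratio 0.874) and Xdh 2.42 FPKM against 4.11 to 4.55 (ratio 0.831). Control mouse 042301 had Dnase1 538 FPKM against 824 to 896 (ratio 0.836), Aqp3 128 FPKM against 87.3 to 92.6 (ratio 0.847) and the mean of tubule program 5.36 against 5.26 to 5.26 (ratio 0.980). Control mouse 042301 had the mean of principal cells 4.91 against 4.04 to 4.18 (ratio 0.841), the mean of stroma program 3.15 against 2.79 to 2.84 (ratio 0.879) and the mean of fibrillar collagens and interstitial matrix 2.67 against 2.36 to 2.41 (ratio 0.846). Control mouse 042301 had the mean of basement membrane 3.39 against 2.84 to 2.93 (ratio 0.836), the mean of endothelium 4.25 against 3.57 to 3.65 (ratio 0.889) and the mean of purine and urate handling 4.41 against 4.53 to 4.55 (ratio 0.860). Control mouse 042301 had the mean of cytochromes P450 and conjugation enzymes 5.77 against 6.13 to 6.15 (ratio 0.945). Control mouse 042310 had Ndufs1 136 FPKM against 129.9 to 131 (ratio 0.833) and Abca1 2.78 FPKM against 1.24 to 1.38 (ratio 0.889). CKD mouse 022301 had the mean of chemokines and cytokines 4.37 against 3.67 to 3.79 (ratio 0.830). Mice 042301 and 110310 carry most of these values, lie together on the second principal component and deviated from their groups by transcript length. Over genes with transcripts of up to 2168 bases the median difference from the other mice of the group was 0.31 and 0.28 (log2) in these mice and -0.23 to 0.094 in the other 6. Over those of at least 4739 bases it was -0.11 and -0.40 in these mice and -0.031 to 0.21 in the other 6, and the part of transcript length in these values was not tested.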

How the results depend on the processing

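Counts over all genes depended on the scaling and on the threshold. The number of genes higher in CKD mice was 4562 with a mean of at least 5 FPKM, which tests fewer genes, 3781 after median-of-ratios rescaling, 3060 with quantile normalization and 3159 with an added 2-fold threshold. The number lower was 3856, 3363 and 680 under the last 3 of these and 2681 at an adjusted p under 0.5. Tubule members higher were 49 after median-of-ratios rescaling and 52 with the 2-fold threshold. Stroma members lower were 24, 25, 19 and 2 and immune members lower 14, 14, 12 and 3 under median-of-ratios, quantile, an adjusted p under 0.5 and the 2-fold threshold. Metabolism members higher were 33, 35 and 33 under median-of-ratios, quantile and the 2-fold threshold, the last of which left 155 lower. Leaving out single mice, or mice 042301 and 110310 together, gave 6574 to 7544 genes higher and 1550 to 1929 lower. With the filter set on the 8 mice alone, 6826 genes were higher and 1743 lower, and 185 immune members were higher rather than 210.

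Of 2447 values of 123 named genes under the alternatives, 2357 kept their direction and side of the threshold, 38 lost significance, 28 gained it and 24 changed sign. After median-of-ratios rescaling Umod became -0.13, Calb1 -0.25, Scnn1g -0.35, Atp6v1b1 -0.069, Nampt -0.38 and Ccnd1 -0.29 (log2). With quantile normalization Scnn1g became -0.30, Cd3e -0.12 and Cd8a -0.23. With single mice, or 042301 and 110310 together, left out, Pecam1 ranged from -0.26 to 0.0068, the upper value without 042301, Nampt from -0.036 without 042301 to 0.47, Upk1b from -0.76 to 0.055 with 1 mouse left out, highest without 012822, and 0.30 without the pair, Upk3a from -1.12 to 0.37, highest without the pair, Hbb-bs from -0.90 to 0.44 without 021320, and Hba-a1 from -1.09 to 0.099 without 120102. Array weights turned Upk1b to 0.20 and Upk3a to 0.33, and the GC content and length correction turned Hbb-bs to 0.082. The cause was not tested.

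No paired analysis was possible because the groups share no replicate numbers. The number of reads behind each value is unknown, so precision at low FPKM cannot be given. Median differences were 0.19 for transcripts of up to 2168 bases and 0.75 for those of at least 4739 bases, and the part of transcript length in the results was not tested beyond the correction.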

Other observations

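Genes under androgen control in the mouse kidney, picked out after their values were seen, mostly fell. Of 12, 11 fell under all 3 scalings, among them Cyp4b1, a fatty acid hydroxylase, at 2382, 2966, 1554 and 3138 FPKM in the control mice and 269, 133, 311 and 159 FPKM in the CKD mice (log2 difference -3.55 ± 0.43 SE, adjusted p = 1.15e-05), Slc7a13, an acidic amino acid transporter, at 619.9, 479, 342 and 637 FPKM in the control mice and 63.7, 7.75, 42.7 and 9.45 FPKM in the CKD mice (log2 difference -4.49 ± 0.57 SE, adjusted p = 1.74e-05), and Odc1, which starts polyamine synthesis, at 541, 633, 208 and 568 FPKM in the control mice and 127, 65.2, 110.3 and 78.4 FPKM in the CKD mice (log2 difference -2.27 ± 0.32 SE, adjusted p = 4.4e-05). Gusb, β-glucuronidase, was 22.8, 26.3, 27.1 and 30.99 FPKM in the control mice and 29.99, 42.97, 44.2 and 32.4 FPKM in the CKD mice, with overlapping groups, and rose on the deposited scale without passing under all 3. For Kap, Acsm3, Slc7a13, Slc22a28 and Slc22a30, CKD mice 021320 and 110310 were above 022301 and 120102. Of 3 genes known to be higher in the kidney of female than of male mice, 3 rose on the deposited scale and 2 under all 3 scalings, with Prlr, the prolactin receptor, at 1.93, 1.996, 0.664 and 1.05 FPKM in the control mice and 17.7, 5.04, 10.5 and 8.19 FPKM in the CKD mice (log2 difference 2.16 ± 0.34 SE, adjusted p = 0.000109) and Slc7a12 at 4.25, 1.54, 0.686 and 1.998 FPKM in the control mice and 55.4, 25.8, 11.5 and 27.5 FPKM in the CKD mice (log2 difference 3.24 ± 0.41 SE, adjusted p = 1.73e-05). The third, Cyp4a14, was 15.4, 31.4, 4.54 and 5.599 FPKM in the control mice and 108, 40.1, 12.9 and 94.2 FPKM in the CKD mice, and its groups overlapped. The labels do not give the sexes of the mice, and the Y-linked genes Ddx3y, Kdm5d, Eif2s3y and Uty summed to 31.0 to 42.5 FPKM in the control mice and 39.2 to 93.6 FPKM in the CKD mice, so that they were expressed in all 8.

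Of 11 acute-phase and protease inhibitor genes, also picked out after their values were seen, 9 were tested, of which 8 rose and 1 fell under all 3 scalings. Serpina10, which inhibits coagulation proteases, was 0.806, 0.2097, 1.16 and 0.812 FPKM in the control mice and 41.02, 68.1, 91.2 and 62.7 FPKM in the CKD mice (log2 difference 5.23 ± 0.26 SE, adjusted p = 1.87e-08), Serpina3n 0.0929, 0.645, 0.389 and 0.1802 FPKM in the control mice and 21.2, 47.7, 30.1 and 63.3 FPKM in the CKD mice (log2 difference 4.87 ± 0.32 SE, adjusted p = 8.84e-08), and Hp, haptoglobin, 0.2198, 1.17, 1.16 and 0.192 FPKM in the control mice and 13.7, 34.3, 22.1 and 28.2 FPKM in the CKD mice (log2 difference 3.91 ± 0.32 SE, adjusted p = 5.61e-07). Pzp, a protease-binding macroglobulin, went the other way at 23.2, 30.4, 48.2 and 41.2 FPKM in the control mice and 0.265, 0.134, 0.588 and 0.0373 FPKM in the CKD mice (log2 difference -4.84 ± 0.27 SE, adjusted p = 3.53e-08). Mgp, a vitamin K-dependent inhibitor of calcification, was 244, 221, 215 and 197 FPKM in the control mice and 1869, 3275, 3248 and 1938 FPKM in the CKD mice (log2 difference 3.51 ± 0.22 SE, adjusted p = 5.95e-08), while the bone proteins Ibsp and Bglap were listed at 0 in all control mice and at 0.0220 and 0.253 FPKM in CKD mouse 022301 alone.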
